A study of Mus musculus with 24 samples.

Results

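Enpep, Alpl, Klhl14 and Slamf6 are 4 genes of the 24506 in an exon count table of mouse B cell precursors, and they form a set because their RNA changed by very large factors when Pax5 was lost or put back. The counts in the libraries with and without Pax5 chose them, so those differences are given as a description with no test, and no threshold was stated for the choice. RNA was counted in 14 libraries, 2 for each of 7 groups, of pro-B cells from C57BL6/J fetal liver, all grown on OP9 stroma with the growth factors KIT ligand, FLT3 ligand and IL-7. Each group carried the retroviral vector pMiG. Ebf1-KO cells had the vector with Ebf1, the vector with Pax5, or the empty vector. Pax5-KO cells likewise had Ebf1, Pax5 or the empty vector, and wild-type (WT) cells had the empty vector. A knockout named alone below, as in "Ebf1-KO", had the empty vector, and "Ebf1-KO+Pax5" means Ebf1-KO cells given Pax5. Binding of EBF1 was mapped in another cell type, the Abelson-transformed pre-B line 230-238. The labels do not say which exons the knockouts lack or whether the libraries of a group came from separate cultures, so the p-values speak of the scatter among these libraries alone, and that scatter may be technical.

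PAX5 is the transcription factor that commits B cell precursors to the B lineage, switching on genes of the B cell surface and of receptor signalling and switching off genes of other lineages. EBF1 acts before it and with it: EBF1 is needed for Pax5 to be switched on, and PAX5 in turn helps to keep Ebf1 on. Enpep encodes glutamyl aminopeptidase, the surface enzyme known as BP-1 or 6C3, by which mouse pre-B cells are recognised and which trims angiotensin peptides. Alpl encodes the tissue-nonspecific alkaline phosphatase, a surface phosphatase best known for the mineralisation of bone. Klhl14 encodes a member of the kelch-like family, many of whose members bring substrates to the CUL3 ubiquitin ligase. Slamf6, also called Ly108, is a receptor of the SLAM family on T, NK and B cells that binds itself on neighbouring cells and signals through the SAP adaptors.

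The sequences in front of 3 of the 4 genes are shown because the members were picked for a common switch and these 3 differ in this region. The 4 windows from RefSeq (GRCm38.p6, the coordinates of mm10) each hold 250 bases before and 50 after a transcription start. That of Klhl14 is not reported here. They are printed 5′ to 3′ on the strand of the gene, with every CG dinucleotide in capitals. The main Alpl start lies at chr4:137796335-137796634 on the minus strand, a second Alpl start inside the gene at chr4:137766426-137766725 on the minus strand, the Enpep start at chr3:129332700-129332999 on the minus strand, and the Slamf6 start at chr1:171917212-171917511 on the plus strand.
Alpl main start: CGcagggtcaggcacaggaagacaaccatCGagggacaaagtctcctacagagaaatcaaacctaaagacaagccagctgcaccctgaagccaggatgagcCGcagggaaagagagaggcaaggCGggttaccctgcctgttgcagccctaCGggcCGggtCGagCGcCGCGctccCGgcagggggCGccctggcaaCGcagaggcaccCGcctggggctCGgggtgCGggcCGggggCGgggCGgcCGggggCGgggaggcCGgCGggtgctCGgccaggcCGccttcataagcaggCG
Alpl internal start: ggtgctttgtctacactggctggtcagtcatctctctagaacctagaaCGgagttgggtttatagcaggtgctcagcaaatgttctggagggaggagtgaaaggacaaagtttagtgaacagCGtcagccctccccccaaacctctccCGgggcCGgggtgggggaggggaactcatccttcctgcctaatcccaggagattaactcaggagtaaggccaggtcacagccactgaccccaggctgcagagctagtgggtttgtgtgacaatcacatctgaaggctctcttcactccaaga
Enpep start: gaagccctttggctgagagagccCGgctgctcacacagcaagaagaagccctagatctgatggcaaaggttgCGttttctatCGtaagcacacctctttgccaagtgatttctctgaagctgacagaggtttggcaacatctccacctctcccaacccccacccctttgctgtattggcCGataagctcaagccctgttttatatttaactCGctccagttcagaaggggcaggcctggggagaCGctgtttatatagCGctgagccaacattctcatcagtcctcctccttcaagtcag
Slamf6 start: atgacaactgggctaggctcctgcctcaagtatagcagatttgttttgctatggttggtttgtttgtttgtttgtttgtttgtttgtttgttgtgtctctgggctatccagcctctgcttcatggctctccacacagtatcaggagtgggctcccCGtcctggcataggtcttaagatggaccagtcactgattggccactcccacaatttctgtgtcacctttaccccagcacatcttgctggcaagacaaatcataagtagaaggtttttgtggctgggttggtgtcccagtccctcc
The main Alpl window held 26 CG dinucleotides and 70.0% G and C, the Enpep window 7 and 51.3%, the internal Alpl window 4 and 54.3%, and the Slamf6 window 1 and 48.3%. Over the 32851 RefSeq windows of this length the medians were 7 CG dinucleotides and 52.7% G and C. Neither TCCCNNGGG, a form of the EBF1 motif, nor GCGTGAC, a core of the PAX5 motif, was found on either strand of the 4 windows, and they occur in 6.56 and 2.09% of all windows. Those letters are simply not in these windows, and nothing follows from that about binding.

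The targeted genes were read first, since they tell what each group of cells had. Pax5 RNA is given in CPM, a count scaled by the depth of its library. It was 37.2 and 33.1 CPM in the replicates of Ebf1-KO+Ebf1, 429 and 399 in Ebf1-KO+Pax5, 2.24 and 2.49 in Ebf1-KO, 9.61 and 9.07 in Pax5-KO+Ebf1, 746 and 440 in Pax5-KO+Pax5 and 20.1 and 12.3 in Pax5-KO. WT cells had 412 and 333 CPM of Pax5. Both groups given Pax5 therefore held Pax5 RNA near or above the WT level, a sum that includes RNA of the vector, and the other knockout groups held at most 37.2 CPM against at least 333 in WT cells. Ebf1 stood at 857 and 893 CPM in Ebf1-KO+Ebf1, 252 and 256 in Ebf1-KO+Pax5, 244 and 282 in Ebf1-KO, 1644 and 1483 in Pax5-KO+Ebf1, 488 and 589 in Pax5-KO+Pax5 and 315 and 241 in Pax5-KO. WT cells had 966 and 1102 CPM of Ebf1. Ebf1 exon reads thus remained in Ebf1-KO cells, and a count over the whole gene cannot check a deletion of part of it. Total exon counts ran from 16118136 to 42076718 per library. In a group with 0 counts in both libraries the limit taken was 3 counts over the group. In the groups where a member had 0 counts that is 0.0531 to 0.0590 CPM. Limits and intervals cover counting error only.

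Enpep and Alpl were high in WT cells, were absent or low in the knockout groups not given Pax5, and came back in part in Pax5-KO+Pax5. In Ebf1-KO+Pax5 Enpep had 40 counts over both libraries, far below WT, and Alpl had 0. Enpep (NM_007934, chromosome 3, 129269177 to 129332749, minus strand) had 1.08 and 0.485 CPM in Ebf1-KO+Pax5, 64.4 and 66.0 in Pax5-KO+Pax5, and 279 and 241 in WT cells. It had 0 counts in both libraries of Ebf1-KO+Ebf1 and of Pax5-KO, 1 count in each Ebf1-KO library, and 0 and 1 count in Pax5-KO+Ebf1. The groups that were high did not overlap with any other group, a separation that follows from how the gene was chosen. Enpep RNA was at least 4808-fold lower in Pax5-KO than in WT cells and at least 1205-fold higher in Pax5-KO+Pax5 than in Pax5-KO cells. Pax5-KO+Pax5 cells, at 25.1% of WT when counts are pooled, remained 3.99-fold below WT cells. In Ebf1-KO+Pax5 the 40 counts of both libraries stood against 2 in Ebf1-KO, a ratio of 18.8 with an exact 95% counting interval of 4.87 to 160, but that level was still 88.5-fold below Pax5-KO+Pax5 and 353-fold below WT cells.

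Alpl (NM_007431, chromosome 4, 137741731 to 137796384, minus strand) was likewise highest in WT cells and next in Pax5-KO+Pax5. It differed from Enpep in Ebf1-KO+Pax5 and in Ebf1-KO+Ebf1. It had 32.8 and 44.5 CPM in Pax5-KO+Pax5 and 170 and 135 in WT cells. Both libraries of Ebf1-KO+Pax5, of Pax5-KO+Ebf1 and of Pax5-KO had 0 counts, and Ebf1-KO had 2 and 0. Ebf1-KO+Ebf1 cells had 13 and 16 counts, 0.627 and 0.456 CPM. So Pax5 gave no Alpl read in Ebf1-KO cells, although Pax5 RNA there was at the WT level. Alpl was at least 2820-fold lower in Pax5-KO than in WT cells, at least 739-fold higher in Pax5-KO+Pax5 than in Pax5-KO cells, and at least 723-fold lower in Ebf1-KO+Pax5 than in Pax5-KO+Pax5. Pax5-KO+Pax5 cells stood 3.82-fold below WT cells, at 26.2% of them.

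Klhl14 came on with Pax5 in both knockouts, and Slamf6 did so in Ebf1-KO cells. Klhl14 (NM_001081403, chromosome 18, 21550377 to 21652368, minus strand) had 40.8 and 51.5 CPM in Ebf1-KO+Pax5, 61.1 and 53.9 in Pax5-KO+Pax5, and 29.1 and 27.5 in WT cells. All other libraries had 0 counts except replicate 2 of Ebf1-KO+Ebf1 with 1 count. Klhl14 was thus at least 522-fold lower in Pax5-KO than in WT cells, at least 795-fold higher in Ebf1-KO+Pax5 than in Ebf1-KO and at least 1044-fold higher in Pax5-KO+Pax5 than in Pax5-KO cells. Pooled counts put Ebf1-KO+Pax5 1.66-fold and Pax5-KO+Pax5 2.00-fold above WT cells, and the means of these 2 groups were 46.2 ± 7.59 and 57.5 ± 5.13 CPM (SD, n = 2 each). These groups also chose the gene and hold 2 libraries each, so none of these differences was tested. The gene overlaps 4930426D05Rik on the other strand in the count table and the RefSeq gene Gm31646, and as the strand setting of the counting was not given in the sources used here, reads of these genes cannot be told apart where they overlap.

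Slamf6 (NM_030710, chromosome 1, 171917462 to 171943910, plus strand) had 45 and 42.4 CPM in Ebf1-KO+Pax5, 4.33 and 3.31 in Pax5-KO+Pax5, and 20.7 and 31.4 in WT cells. It had 5 and 8 counts in Ebf1-KO+Ebf1 and 0 counts in both libraries of Ebf1-KO and of Pax5-KO+Ebf1. In Pax5-KO cells replicate 1 had 0 counts and replicate 2 had 59, or 1.73 CPM, so the Pax5-KO libraries disagree on whether the gene was off. Slamf6 was at least 737-fold higher in Ebf1-KO+Pax5 than in Ebf1-KO and stood 1.69-fold above WT cells there. In Pax5-KO cells it was 24.2-fold lower than in WT cells, and in Pax5-KO+Pax5 it was 3.46-fold higher than in Pax5-KO. Those ratios rest on the split replicates: without replicate 2 of Pax5-KO they were at least 181 and at least 26.0, and against replicate 2 alone 15.0 and 2.14, a choice made after seeing the data. Slamf6 overlaps the RefSeq gene Gm37065, which is not in the count table.

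The name of the group, on-off genes that follow Pax5, was given from these same libraries, so its match to them is no result. Klhl14 reached its WT level with Pax5 in both knockouts, within the limit set by its overlap with 4930426D05Rik. Enpep and Alpl did not reach their WT range with Pax5 in Ebf1-KO cells, and Slamf6 reached 14.3% of WT with Pax5 in Pax5-KO cells but 169% in Ebf1-KO cells. Compared per kb of exon, so that genes can be set side by side, WT cells held 62.1 ± 6.30 CPM per kb of Enpep, 60.6 ± 9.86 of Alpl, 10.2 ± 2.97 of Slamf6 and 7.06 ± 0.271 of Klhl14 (SD, n = 2). In Pax5-KO+Pax5 cells the levels per kb were 15.6 ± 0.276 for Enpep, 15.4 ± 3.29 for Alpl, 14.3 ± 1.28 for Klhl14 and 1.5 ± 0.283 for Slamf6, differences that were not tested. In Ebf1-KO+Pax5 Slamf6 and Klhl14 lay above Enpep and Alpl, with 17.1 ± 0.741 CPM per kb of Slamf6, 11.5 ± 1.89 of Klhl14, 0.187 ± 0.10 of Enpep and 0 counts of Alpl. In bulk samples fewer cells that express a gene and less RNA per cell cannot be told apart.

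**Figure D1:**
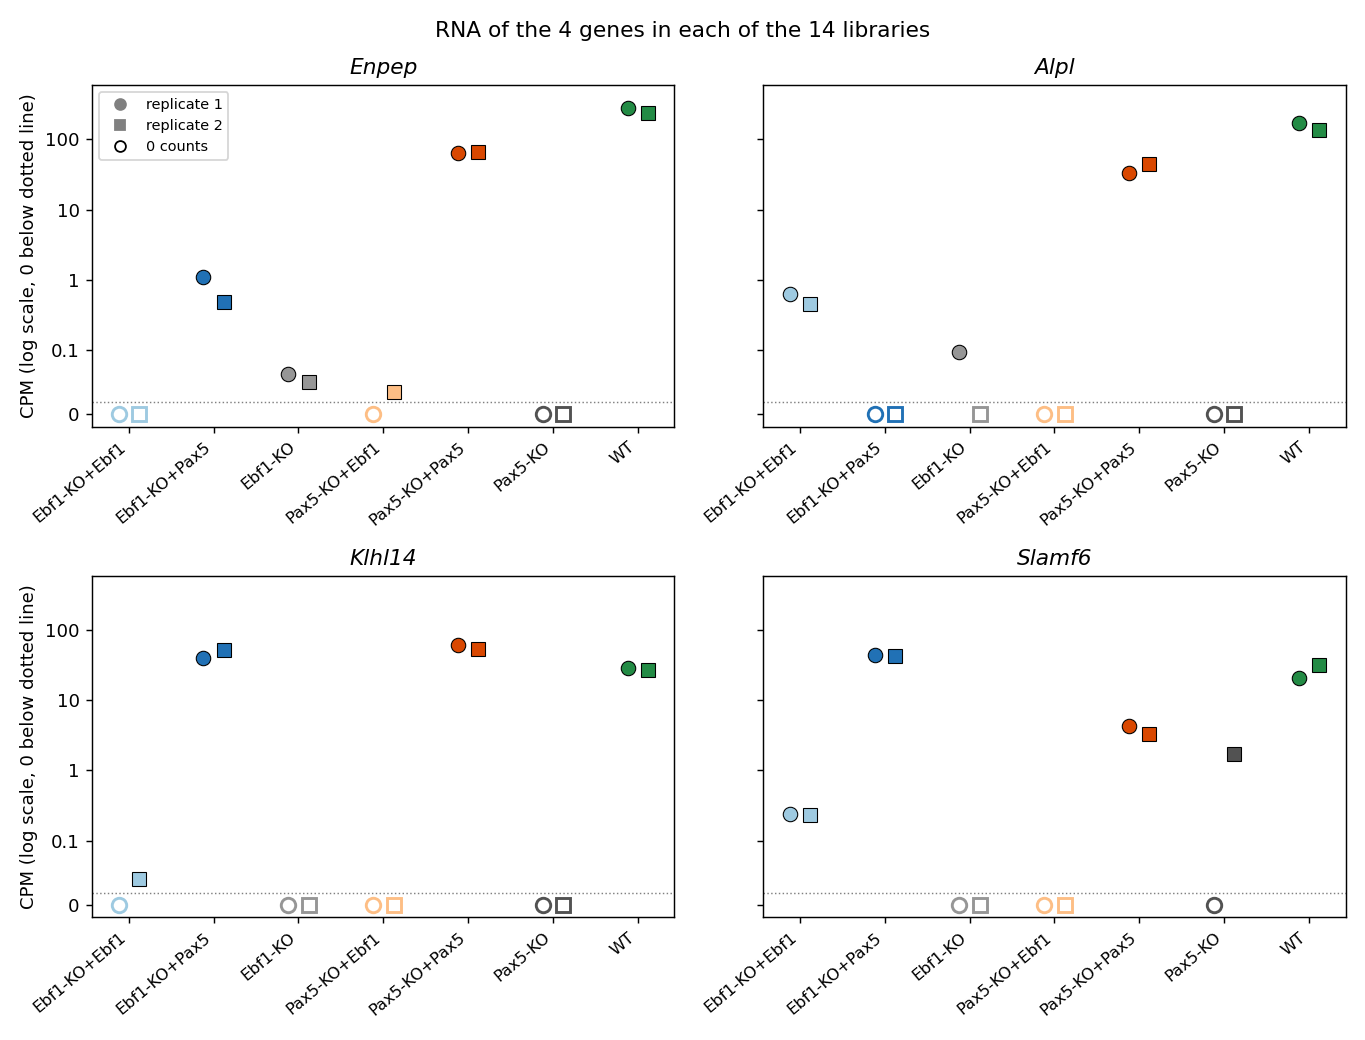
CPM (log scale) of Enpep, Alpl, Klhl14 and Slamf6 in each library, with circles for replicate 1, squares for replicate 2 and open symbols below the dotted line for libraries with 0 counts. Enpep and Alpl are high in WT (135 to 279 CPM) and Pax5-KO+Pax5 (32.8 to 66.0) and at most 1.08 elsewhere. Klhl14 and Slamf6 are high in Ebf1-KO+Pax5 (40.8 to 51.5). In Pax5-KO+Pax5, Klhl14 has 61.1 and 53.9 CPM and Slamf6 has 4.33 and 3.31.

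Set against Pax5 RNA in the same libraries, the 4 genes parted at similar Pax5 levels. Ebf1-KO+Pax5 replicate 2 had 399 CPM of Pax5 and Pax5-KO+Pax5 replicate 2 had 440. At these levels Enpep had 0.485 CPM in the first library and 66.0 in the second, Alpl 0 and 44.5, Klhl14 51.5 and 53.9, and Slamf6 42.4 and 3.31. Pax5 at 33.1 to 37.2 CPM, in Ebf1-KO+Ebf1, came with at most 0.627 CPM of any of the 4 genes. Ebf1 RNA in the same group pair was 252 and 256 CPM in Ebf1-KO+Pax5 and 488 and 589 in Pax5-KO+Pax5. The part of Ebf1 in these differences was not tested.

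**Figure D2:**
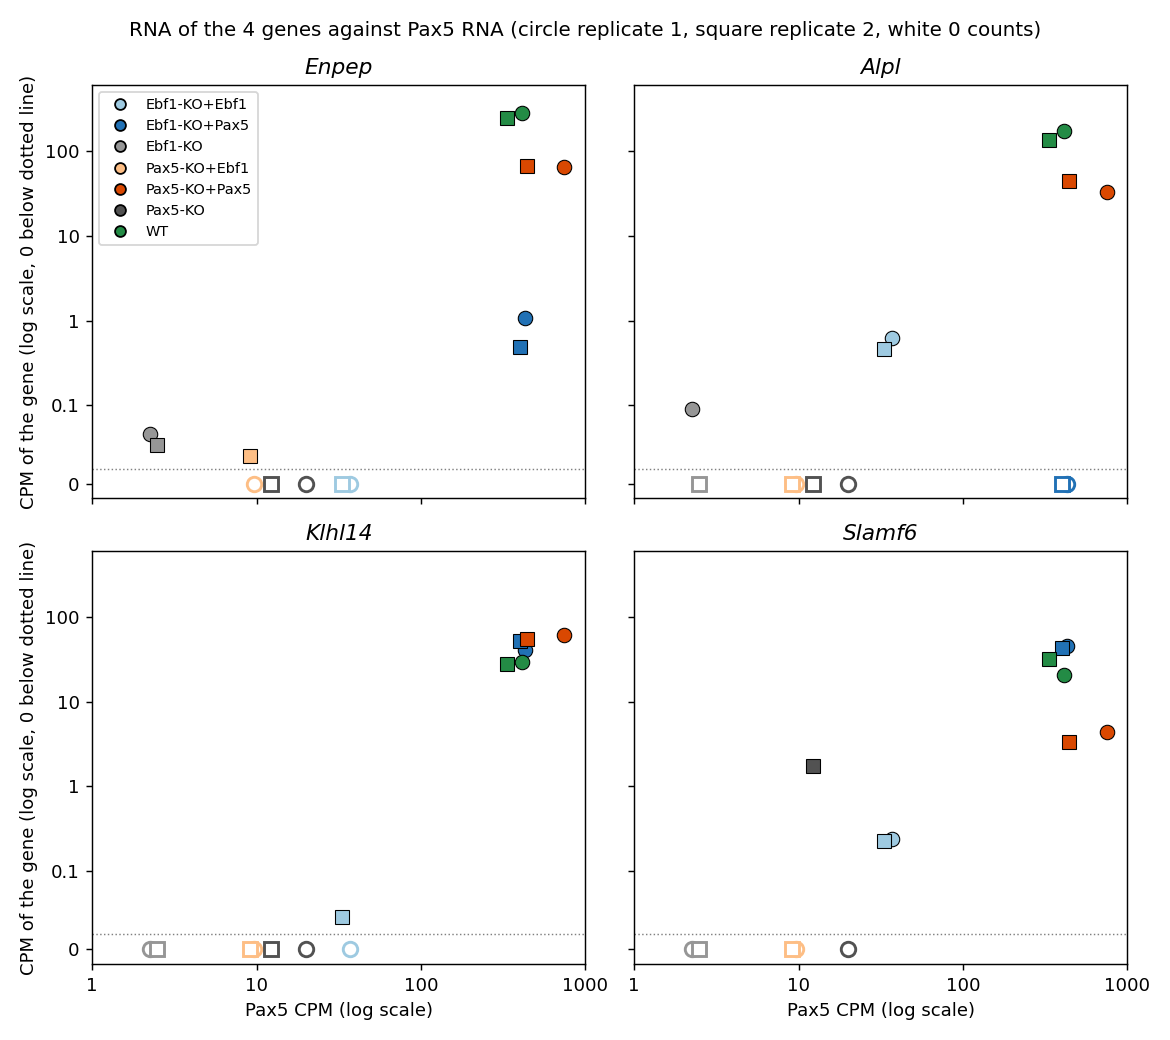
CPM of each of the 4 genes (log scale, 0 below the dotted line) against Pax5 CPM (log scale), 1 point per library, coloured by group. At 399 to 746 CPM of Pax5 the Ebf1-KO+Pax5 libraries lie at 0 to 1.08 CPM of Enpep and Alpl, and the Pax5-KO+Pax5 libraries at 32.8 to 66.0.

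What Ebf1 does to the 4 genes was asked next. All 4 had less RNA in Ebf1-KO than in WT cells, a comparison made of libraries that were also used to choose the members, so it is given with no test; 6.65% of the tested genes were called lower in it. Pooled counts put Enpep 6628-fold lower (exact 95% counting interval 1834 to 54738) and Alpl 3887-fold lower (1076 to 32107), both against 2 counts in Ebf1-KO, Klhl14 at least 480-fold lower and Slamf6 at least 437-fold lower. Pax5 itself was 157-fold lower in Ebf1-KO than in WT cells (adjusted p = 2.51e-09 by edgeR), so loss of Ebf1 and loss of Pax5 RNA cannot be told apart there. Counts were tested with edgeR's quasi-likelihood test in 1 fit over all 7 groups, with Benjamini-Hochberg adjustment over the 14550 genes tested and a threshold of 0.05. A ± on a log2 fold change is an approximate SE, the size of the change divided by the square root of the test's F statistic. The 4 members passed its filter on low counts through the groups where they were high.

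The groups given Ebf1 did not choose the members, but the empty-vector groups they are set against did, as the low end. The members were also in the fit only through groups in which they were high, so these values too are given with no test. Ebf1 put back into Ebf1-KO cells left all 4 genes far below WT. Alpl had 0.627 and 0.456 CPM in Ebf1-KO+Ebf1 against 0.0915 and 0 in Ebf1-KO. The ratio of 29 to 2 counts was 13.2 with a counting interval of 3.34 to 114, and the level was 294-fold below WT cells. Slamf6 had 13 counts in Ebf1-KO+Ebf1 and 0 in Ebf1-KO, at least 3.95-fold higher. Enpep had 0 counts against 2 and Klhl14 1 against 0, which allows no fold. In the same cells Pax5 rose 14.5-fold (log2 fold change 3.89 ± 0.31, adjusted p = 2.34e-06 by edgeR), where 2.21% of tested genes were called higher, and was still 10.8-fold below WT cells.

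Ebf1 added to Pax5-KO cells brought none of the 4 genes on. Enpep had 1 count in Pax5-KO+Ebf1 and 0 in Pax5-KO, Alpl and Klhl14 had 0 in all 4 libraries, and Slamf6 had 0 in Pax5-KO+Ebf1 against 59 in Pax5-KO, all from replicate 2. Ebf1 RNA was 5.68-fold higher in Pax5-KO+Ebf1 than in Pax5-KO cells (log2 fold change 2.49 ± 0.20, adjusted p = 2.94e-05 by edgeR), where 3.60% of tested genes were called in either direction. Between the groups given Ebf1, Alpl had 29 counts in Ebf1-KO+Ebf1 against 0 in Pax5-KO+Ebf1, at least 9.78-fold higher, and Slamf6 13 against 0, at least 4.38-fold higher. Enpep had 0 against 1 and Klhl14 1 against 0. The effect of Ebf1 on Pax5 RNA itself differed between the knockouts (log2 effect in Ebf1-KO minus that in Pax5-KO cells 4.68, adjusted p = 1.79e-05 by edgeR), where 0.612% of tested genes were called. Pax5 is the targeted gene in Pax5-KO cells, so this difference does not compare effects on an intact Pax5 gene.

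EBF1 peaks lay near all 4 genes in the 230-238 line. The authors' list holds 17230 peaks of 320 bases, each with a score, a tag count and a fold over control that are the authors' own values. Counting peaks inside a gene or within 100 kb of its start gave 2 for Enpep, 13 for Alpl, 4 for Klhl14 and 2 for Slamf6, or 21 in all. A peak in that window is common, since 85.6% of the tested genes had at least 1 and the median was 3. As many as the 2 of Enpep and of Slamf6 were found at 71.5% of tested genes, as many as the 4 of Klhl14 at 45.5%, and as many as the 13 of Alpl at 1.75%. The peak nearest to the Alpl start, at chr4:137795994-137796314, lay 0.23 kb inside the gene and 21 bases from the main window printed above, and its score of 223 ranked 265th in the list, within the top 1.54%. A weaker peak at chr4:137766370-137766690, with a score of 25, covered 265 of the 300 bases of the internal Alpl window.

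The nearest peak to the Enpep start lay 1.74 kb upstream, at chr3:129334330-129334650, with a score of 136 that ranked 1407th, and the other Enpep peak, inside the gene at 25.48 kb from its start, had a score of 19 against a list median of 41. A peak within 2 kb of the start, as Enpep and Alpl had, was found at 31.2% of tested genes. The 4 Klhl14 peaks all lay inside the gene, between 9.40 and 80.23 kb from its start, with scores from 32 to 101. Slamf6 had a peak of score 66 inside the gene, 3.79 kb from its start, and one of score 34 at 68.49 kb upstream, inside the neighbouring SLAM family gene Cd84. Of the 13 Alpl peaks, 6 lay nearer to the start of another gene, Rap1gap or Ece1, than to that of Alpl. The peaks come from 1 list in another cell line, so they say nothing of binding in the 7 groups.

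**Figure D3:**
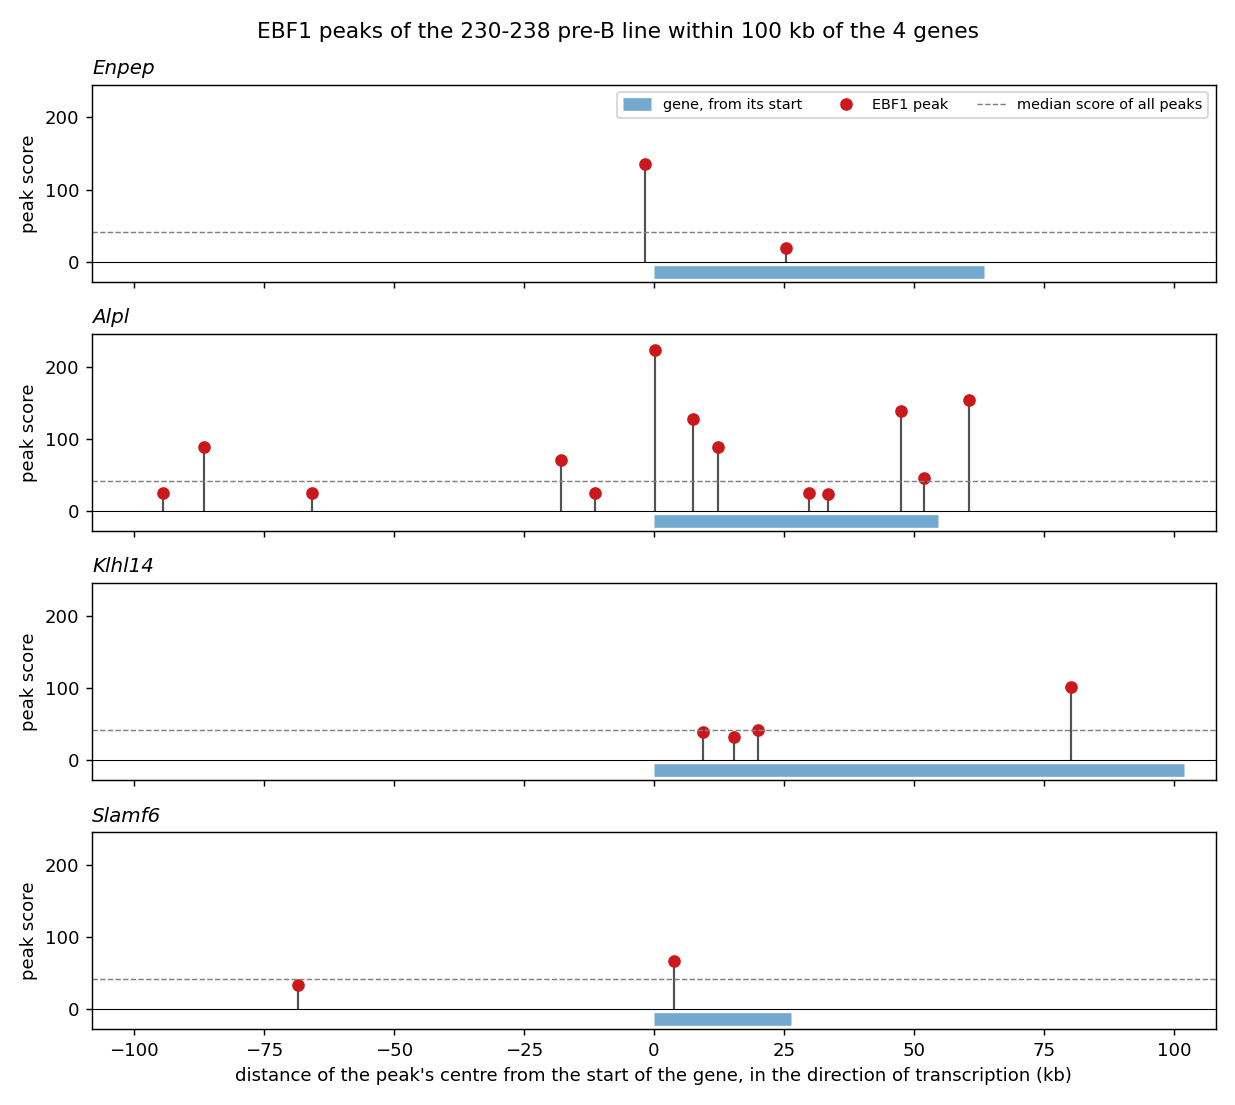
Score of each EBF1 peak (authors' value) against its distance in kb from the start of the gene, with the gene drawn as a bar and the median score of the list, 41, as a dashed line. Alpl has 13 peaks, with the highest score, 223, at its start, and Enpep, Klhl14 and Slamf6 have 2, 4 and 2.

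Genes next to the 4 members were looked at in the same Pax5 comparisons. Of 19 genes that start within 250 kb of a member, 14 were tested. At 3 of the 4 places, 4 of them passed in at least 1 of the 3 comparisons, and the share of all tested genes that did so was not computed. That share is at least 13.6%, the part called in either direction in Pax5-KO against WT cells alone. The gene beside Klhl14 overlaps it, and those beside Slamf6 passed with Pax5 in Ebf1-KO cells only. With Pax5 in Ebf1-KO cells 4 neighbours were higher, where 3.15% of tested genes were called higher. Of the genes called there 77.1% were higher, and 66.5% with upper quartile scaling, which moves the median of all genes to -0.10 on the log2 scale against -0.01. With Pax5 in Pax5-KO cells 2 were higher, where 1.64% were, and in Pax5-KO against WT cells 2 were lower, where 5.00% were called lower. Each of these counts includes 4930426D05Rik, whose reads cannot be told apart from those of Klhl14 where they overlap. With the replicate number as a block, Vangl2 was also lower in Pax5-KO than in WT cells (adjusted p = 0.0197 by edgeR, 0.0682 without the block) and Pex19 higher (0.0349, 0.0531 without it). Within 500 kb, 6 of 37 tested genes passed. Beside a share of at least 13.6% of all tested genes, that count is not read as a result about the neighbours. Among the 6, Hspg2 beside Alpl went the other way: higher in Pax5-KO than in WT cells and lower with Pax5 in Pax5-KO cells. Elovl6, a fatty acid elongase 199.6 kb upstream of Enpep, had 480 and 595 CPM in Ebf1-KO+Pax5 against 123 and 151 in Ebf1-KO, 909 and 1090 in Pax5-KO+Pax5 against 118 and 131 in Pax5-KO, and 548 and 550 in WT cells. Its log2 fold changes were 1.97 ± 0.21, 3.00 ± 0.22 and, for Pax5-KO against WT, -2.14 ± 0.22 (adjusted p = 9.29e-05, 3.50e-06 and 7.01e-06 by edgeR). It rose with Pax5 in both knockouts. 4930426D05Rik, which begins 0.8 kb inside Klhl14 on the other strand, had 16.1 and 17.4 CPM in Ebf1-KO+Pax5, 5.68 and 7.61 in Pax5-KO+Pax5, 17.0 and 12.3 in WT cells, and 0 counts in Ebf1-KO and Pax5-KO (adjusted p = 0.000303, 0.000618 and 7.22e-05 by edgeR); it shares the strand limit of Klhl14.

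Beside Slamf6, Cd84 and Vangl2 rose with Pax5 in Ebf1-KO cells. Cd84, a SLAM family receptor, had 43.9 and 43.4 CPM in Ebf1-KO+Pax5 against 6.63 and 7.77 in Ebf1-KO (log2 fold change 2.6 ± 0.45, adjusted p = 0.00373 by edgeR, 0.0912 without Ebf1-KO replicate 1). Vangl2, a protein of planar cell polarity, had 143 and 193 CPM against 36.7 and 54.7 (1.88 ± 0.27, adjusted p = 0.000864 by edgeR). With Pax5 in Pax5-KO cells neither was called: Cd84 had 16.4 and 17.5 CPM in Pax5-KO+Pax5 against 12 and 19.5 in Pax5-KO (adjusted p = 0.968 by edgeR) and Vangl2 96.8 and 81.2 against 66.6 and 82.2 (0.770). Set directly against each other, Ebf1-KO+Pax5 was above Pax5-KO+Pax5 for Cd84 (1.36 ± 0.43, adjusted p = 0.0470 by edgeR) and Vangl2 (0.92 ± 0.26, 0.0288), where 7.18% of tested genes were called higher; the Cd84 call was lost whichever of the 4 libraries was left out and the Vangl2 call for 3 of the 4. The difference between the Pax5 effects in the 2 knockouts was not tested for them. Cd48 and Slamf1, also of the SLAM family and in the same cluster, gave 0 calls by edgeR and by DESeq2 in these 3 comparisons, with 1 unadjusted p under 0.05, for Cd48 with Pax5 in Pax5-KO cells. The 3 tested neighbours of Alpl, Ece1, Eif4g3 and Usp48, gave 0 calls by both tools in them, with an unadjusted p under 0.05 for 2 with Pax5 in Ebf1-KO cells and 1 in Pax5-KO against WT cells.

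**Figure D4:**
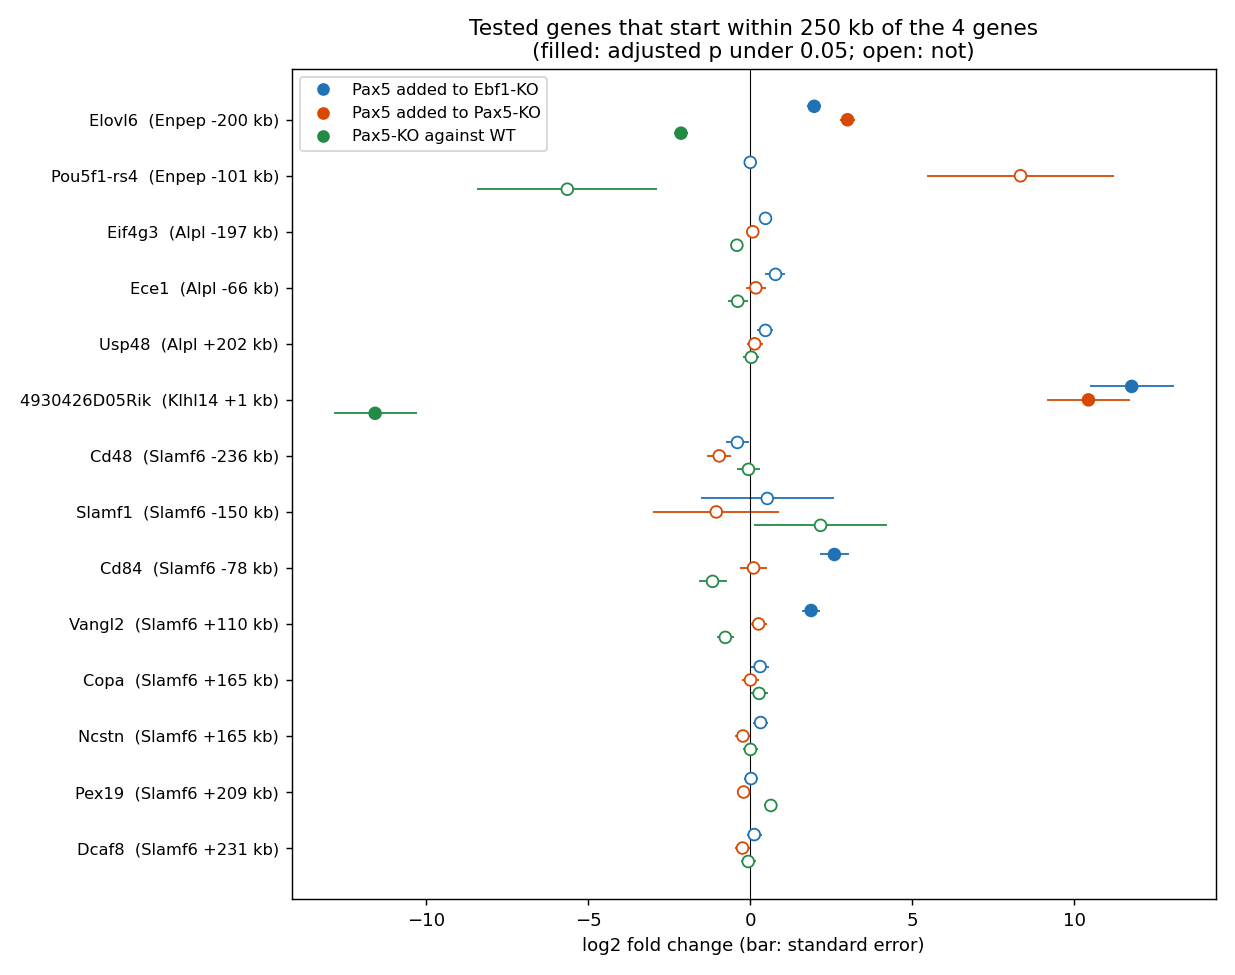
Log2 fold change (bar, approximate SE from the F statistic) of the 14 tested genes that start within 250 kb of a member, in the 3 Pax5 comparisons. Filled points have an adjusted p under 0.05 and labels give the member and the distance in kb. Elovl6 and 4930426D05Rik are filled in all 3 comparisons, and Cd84 and Vangl2 with Pax5 in Ebf1-KO cells.

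Lists of related genes put the members in context; they and the members were written with results of these data known. Of 16 genes that PAX5 is known to activate in B cells, 10 were higher with Pax5 in Ebf1-KO cells, where 3.15% of tested genes were called higher, and 1, Mycn, was lower. With Pax5 in Pax5-KO cells 11 were higher, where 1.64% were, and in Pax5-KO against WT cells 13 were lower, where 5.00% were. The list holds Ebf1, whose call in Pax5-KO+Pax5 was lost without replicate 2 of Pax5-KO (adjusted p = 0.192) or of Pax5-KO+Pax5 (0.160 by edgeR). Their median log2 fold changes were 1.94, 1.78 and -2.89, against -0.01, 0.01 and 0.04 over all genes tested. Cd79a, a chain of the B cell receptor, had 7.93 and 6.21 CPM in Ebf1-KO+Pax5 against 0.549 and 0.518 in Ebf1-KO (adjusted p = 1.45e-05 by edgeR). It had 519 and 592 CPM in Pax5-KO+Pax5 against 79.0 and 52.4 in Pax5-KO (adjusted p = 8.40e-06 by edgeR), and in WT cells it had 611 and 427, above Pax5-KO (adjusted p = 1.95e-06 by edgeR). Cd79a was lower in Ebf1-KO+Pax5 than in Pax5-KO+Pax5 (log2 fold change -6.30 ± 0.31, adjusted p = 1.70e-08 by edgeR), where 7.64% of tested genes were called lower. Blnk, a signalling adaptor of the B cell receptor, had 210 and 285 CPM in Ebf1-KO+Pax5 against 164 and 207 in Pax5-KO+Pax5 (0.42 ± 0.47, adjusted p = 0.612).

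Genes that PAX5 is known to repress were set beside them. Of 12, 1 (Jchain) was lower with Pax5 in Ebf1-KO cells, where 0.935% of tested genes were called lower, 7 were lower with Pax5 in Pax5-KO cells, where 2.40% were, and 9 were higher in Pax5-KO than in WT cells, where 8.65% were called higher. With the replicate block 3 (Jchain, Flt3 and Xbp1) were lower and 1 (Emb) higher with Pax5 in Ebf1-KO cells, and 10 were higher in Pax5-KO than in WT cells. Emb lost its call in Pax5-KO+Pax5 without replicate 1 of that group (adjusted p = 0.0629 by edgeR). Flt3, a receptor of early progenitors, had 202 and 260 CPM in Ebf1-KO+Pax5 against 356 and 399 in Ebf1-KO (log2 fold change -0.71 ± 0.20, adjusted p = 0.0616 by edgeR, 0.0290 with the replicate block) and 22.4 and 20.5 in Pax5-KO+Pax5 against 237 and 240 in Pax5-KO (-3.48 ± 0.22, adjusted p = 6.98e-07). Their median log2 fold changes were 0.22 in Ebf1-KO cells, -1.50 in Pax5-KO cells and 2.96 in Pax5-KO against WT cells.

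Relatives of the 4 proteins were counted in the same comparisons. Of all tested genes 3.15% were called higher and 0.935% lower with Pax5 in Ebf1-KO cells, 1.64% and 2.40% with Pax5 in Pax5-KO cells, and 8.65% and 5.00% in Pax5-KO against WT cells. In lists this short, counts of 1 or 2 beside such shares are not read as a result about the relatives. Of 8 tested SLAM family and SAP genes other than Slamf6, 1 (Cd84) was higher with Pax5 in Ebf1-KO cells, and in Pax5-KO against WT cells 1 (Sh2d1b1) was higher and 1 (Slamf7) lower, Slamf7 losing its call whichever of the 4 libraries was left out. With Pax5 in Pax5-KO cells 0 were called by edgeR, 3 had an unadjusted p under 0.05 and DESeq2 called 2, Cd244 and Sh2d1b1. The median log2 fold changes of the list were 0.72 with Pax5 in Ebf1-KO cells, -1.0 with Pax5 in Pax5-KO cells and -0.66 in Pax5-KO against WT cells.

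Of 9 tested aminopeptidases of the Enpep family, 1 (Lnpep) was higher with Pax5 in Ebf1-KO cells, 1 (Anpep) was lower with Pax5 in Pax5-KO cells, a call that was lost whichever of the 4 libraries was left out, and 2 (Anpep and Erap1) were higher in Pax5-KO than in WT cells, Erap1 losing its call when any 1 of 3 of the 4 libraries was left out. With the replicate block Lta4h was also higher and Lnpep and 2010111I01Rik lower in Pax5-KO than in WT cells (adjusted p = 0.00636, 0.0484 and 0.0228 by edgeR). Anpep, or CD13, a myeloid surface enzyme, had 9.96 and 12.3 CPM in Pax5-KO against 0 and 0.0572 in WT cells. The medians of the list were 0.00, -0.03 and 0.03 in the same comparisons. Of 5 tested phosphate and nucleotide enzymes other than Alpl, 0 were called by edgeR or DESeq2 in the 3 comparisons, and 1, Entpd1 with Pax5 in Ebf1-KO cells, had an unadjusted p under 0.05; the medians were 0.53, 0.00 and 0.00.

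Of 38 tested kelch-like and CUL3 genes other than Klhl14, 2 (Klhl24 and Klhl30) were lower with Pax5 in Pax5-KO cells, each call being lost when any 1 of 3 of the 4 libraries was left out. In Pax5-KO against WT cells 1 (Klhl30) was higher and 2 (Klhl6 and Klhl24) lower, Klhl6 losing its call without WT replicate 1 or Pax5-KO replicate 2. With Pax5 in Ebf1-KO cells 0 were called by edgeR, 5 had an unadjusted p under 0.05 and DESeq2 called 1, Klhl2. The medians of the list were -0.06, 0.08 and 0.08 with Pax5 in Ebf1-KO cells, with Pax5 in Pax5-KO cells and in Pax5-KO against WT cells.

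The genes whose profiles over the 14 libraries lay nearest to those of the members were looked up. Likeness was the root mean square difference between log2 CPM profiles, each centred on its mean, and these genes are described with no test. Nearest to Enpep were Crhbp (1.58 log2 units), Edaradd (1.97), Mum1l1 (2.02) and Cd55 (2.03), and nearest to Alpl were Gm266 (1.63), Crhbp (1.63), Ceacam9 (1.82) and Ehd2 (1.85). Crhbp had 0.388 and 0.162 CPM in Ebf1-KO+Pax5, 16.3 and 23.8 in Pax5-KO+Pax5 and 212 and 180 in WT cells, and Ceacam9 0 counts, 27.3 and 35.4, and 6.84 and 4.46 in the same order. The other genes nearest to Enpep had more RNA with Pax5 in Ebf1-KO cells. In Ebf1-KO+Pax5 Edaradd had 18.2 and 10.3 CPM, Mum1l1 2.80 and 1.49, and Cd55 2.46 and 5.11. In Ebf1-KO Edaradd had 0.0458 and 0.0345 CPM, Mum1l1 0 and 0.0345, and Cd55 0.595 and 0.207. Nearest to Klhl14 were 4930426D05Rik (1.14), Tmc7 (1.6), Mum1l1 (1.81) and Edaradd (1.89), and nearest to Slamf6 were Tmc7 (1.39), 4930426D05Rik (1.43), Sema5a (1.75) and Cd38 (1.76). Sema5a had 56.3 and 60.0 CPM in Ebf1-KO+Pax5, 0.978 and 1.19 in Pax5-KO+Pax5 and 35.8 and 33.6 in WT cells, a wider gap than that of Slamf6. To the mean of the 4 the nearest were Mum1l1 (1.11), Edaradd (1.12), Cd55 (1.30) and Rd3l (1.46).

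Pax5 itself ranked 42nd in likeness to Enpep, 123rd to Alpl, 6th to Klhl14 and 5th to Slamf6. Among the members the pair Enpep and Alpl differed by 1.76 log2 units and the pair Klhl14 and Slamf6 by 2.04, and the 4 other pairs by 2.53 to 3.99. The likeness rests on levels that include 0 counts, so low values weigh by the prior count of 2.

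**Figure D5:**
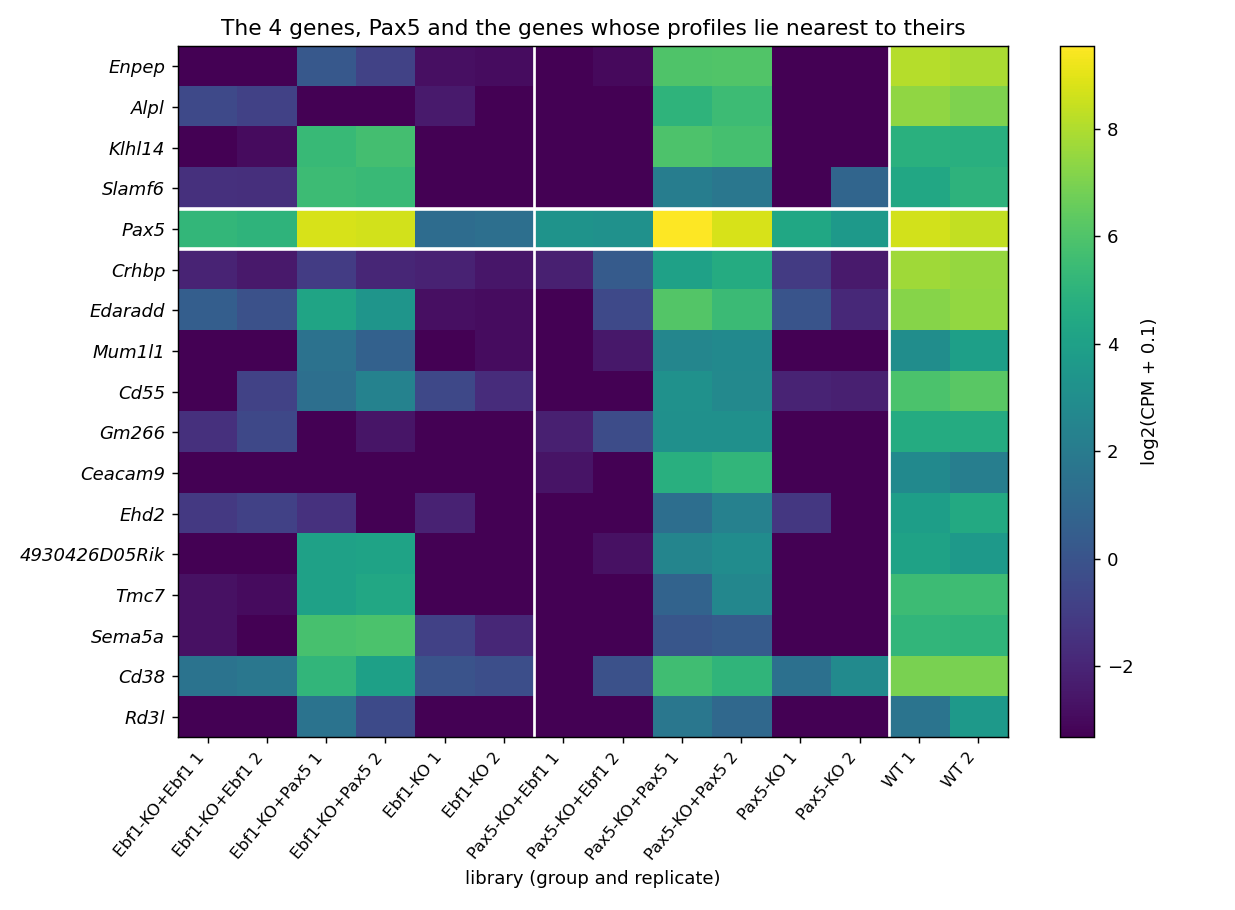
Colour shows log2(CPM + 0.1) of the 4 genes, of Pax5 and of their nearest genes in each of the 14 libraries, grouped by knockout with WT at the right. Crhbp, Gm266, Ceacam9 and Ehd2, the genes nearest to Alpl, share with Enpep and Alpl the dark Ebf1-KO+Pax5 columns. Of the genes nearest to Enpep, Edaradd (18.2 and 10.3 CPM), Mum1l1 (2.80 and 1.49) and Cd55 (2.46 and 5.11) are brighter there. 4930426D05Rik, Tmc7, Sema5a and Cd38 share with Klhl14 and Slamf6 the bright Ebf1-KO+Pax5 columns.

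Markers of other cells were summed beside these results, since stroma can express Alpl and Enpep, and T and NK cells Slamf6. Sums over 16 stromal markers were 50.3 to 62.2 CPM in Ebf1-KO+Ebf1, 105 to 110 in Ebf1-KO+Pax5, 101 to 109 in Ebf1-KO, 39.5 to 41.2 in Pax5-KO+Ebf1, 25.4 to 37.9 in Pax5-KO+Pax5, 60.1 to 69.0 in Pax5-KO and 46.7 to 93.2 in WT cells, with 8 to 12 of the 16 detected. Of the 16, Dcn and Lum had 0 counts in all groups. Sums over 10 T lineage markers were 252 to 265 CPM in Ebf1-KO+Pax5, 254 to 350 in Ebf1-KO, 106 to 119 in Pax5-KO+Pax5, 453 to 540 in Pax5-KO and 19.3 to 36.0 in WT cells, and sums over 11 NK and innate lymphoid markers were 411 to 446, 218 to 283, 119 to 126, 411 to 457 and 0.777 to 1.89 CPM in the same groups. In WT cells, which had Slamf6, 5 of the 10 T lineage markers were detected and Cd3e, Cd3g, Cd4, Cd8a and Bcl11b were at 0, and 7 of the 11 NK markers were detected and Ncr1, Gzmb, Prf1 and Eomes were at 0. In Pax5-KO cells the T lineage sum was 540 in replicate 2, which held the Slamf6 reads, and 453 in replicate 1, and its part in them was not tested. Sums over 12 myeloid markers were 779 to 834 CPM in Ebf1-KO+Pax5, 162 to 166 in Pax5-KO+Pax5 and 25.9 to 28.7 in WT cells, against 800 to 801 in Ebf1-KO and 544 to 727 in Pax5-KO. Sums over 11 pro-B and pre-B markers were 960 to 978 CPM in Ebf1-KO+Pax5, 5186 to 5705 in Pax5-KO+Pax5 and 6548 to 7077 in WT cells, against 361 to 382 in Ebf1-KO and 1757 to 1937 in Pax5-KO. The part of these cells in the levels of the 4 genes was not tested.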

How the data were processed

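For the 14 RNA libraries the authors deposited a count of exon reads per gene in whole numbers, made with HOMER on mm10 and not normalized, per the file headers. The EBF1 peak list holds, per the file headers, a normalized tag count (a signal scaled by the authors), a score set by the authors' peak caller and a fold over control, a ratio the authors computed. Its 2 immunoprecipitated samples gave 1 list. The submitters' processing notes name STAR 2.6.0b-1, HOMER 4.8, DESeq2 and Bowtie2 2.3.4.2 and 2.3.5 among the tools, with no roles. The strand setting was not given in the sources used here. All columns of the count table were matched to a sample by name, and the unnumbered Pax5-KO column was taken as replicate 1. Contact profiles of the Myc promoter were not used here.

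CPM were computed in edgeR 4.0.16 (R 4.3.3) with TMM scaling, with a prior count of 2 for log2 profiles. Genes passing filterByExpr were tested by edgeR's quasi-likelihood test over the 7 groups, with Benjamini-Hochberg adjusted p under 0.05 as the threshold. DESeq2 1.42.0 was the other tool. A group at 0 counts was set at 3 counts for a fold. The code was tested on simulated data. Replicates differed by more than sampling noise (chi-square per degree of freedom of 71.2 to 314.9). Peaks were counted within 100 kb of a start or inside the gene, and neighbours within 250 kb. The members, the gene lists, the marker lists and the rule for named genes were chosen with earlier results of these data known. The rule named the 4 members, Pax5, Ebf1, every neighbour past the threshold, the 4 nearest genes by profile and, of each list, the 4 with the smallest p past the threshold. A gene that this rule also named is not reported here. Genes that make up a count of 5 or fewer, and Hspg2, Cd48, Slamf1, Ece1, Eif4g3 and Usp48, were named after their values were seen. Planned tests of the members in the Ebf1 comparisons are not given, because libraries of those comparisons entered the choice or the members passed the filter only through other groups. In the column headers all replicate 1 libraries carry one tag and all replicate 2 libraries another, whose meaning is not given, so each tag holds 1 library per group. Same-numbered libraries deviated together in part (r of -0.059 to 0.236, 13 of 21 pairs over 0.1), and values with the replicate number as a block stand beside the calls they change. Alternatives were other scalings, DESeq2, no low-count filter, a fit of only the groups compared, a replicate block, each library left out in turn, other peak and neighbour windows, and other measures of likeness.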

Additional observations from a re-analysis of the deposited data

Results flagged for a closer look

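The effect of Ebf1 differed between the 2 knockouts, by the interaction term of the edgeR fit, for 3 of the genes named here. For Pax5 the log2 effect in Ebf1-KO cells minus that in Pax5-KO cells was 4.68 (adjusted p = 1.79e-05 by edgeR), with 37.2 and 33.1 CPM in Ebf1-KO+Ebf1 against 2.24 and 2.49 in Ebf1-KO. In Pax5-KO+Ebf1 it had 9.61 and 9.07 CPM against 20.1 and 12.3 in Pax5-KO. Those reads come from the gene targeted in these cells, so the difference does not compare effects on an intact Pax5 gene.

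For Cd79a, which encodes a chain of the B cell receptor, the difference was 7.35 (adjusted p = 6.20e-07 by edgeR). It had 34.2 and 41.7 CPM in Ebf1-KO+Ebf1 against 0.549 and 0.518 in Ebf1-KO. In Pax5-KO+Ebf1 it had 31.8 and 25.4 CPM against 79.0 and 52.4 in Pax5-KO. For Cd38, a surface enzyme among the genes nearest in profile to Slamf6, it was 5.18 (adjusted p = 0.0322 by edgeR), with 2.89 and 3.28 CPM in Ebf1-KO+Ebf1 against 0.869 and 0.760 in Ebf1-KO. In Pax5-KO+Ebf1 it had 0 and 0.829 CPM against 2.56 and 6.99 in Pax5-KO. The Cd38 call was lost when either Ebf1-KO library was left out (adjusted p = 0.131 and 0.130), or Ebf1-KO+Ebf1 replicate 2 (0.0837), or Pax5-KO replicate 2 (0.155).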

How the results depend on the processing

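No fold change of the 4 members turned its direction under any alternative that was run. The low levels limit the members: folds against 0 counts are bounds, and Alpl with Ebf1 rests on 29 and 2 counts. DESeq2 called 707 genes with Ebf1 in Ebf1-KO cells (432 by edgeR), 1506 with Ebf1 in Pax5-KO cells (524), 1305 between the groups given Ebf1 (539), 224 for the difference of the Ebf1 effects (89), 1199 with Pax5 in Ebf1-KO cells (594) and 1109 with Pax5 in Pax5-KO cells (587). With no low-count filter these counts were 711, 1230, 1095, 269, 1002 and 1043 in the same order. With only the groups compared in the fit there were 955 with Ebf1 in Ebf1-KO cells, 67 with Ebf1 in Pax5-KO cells, 62 between the groups given Ebf1 and 1066 with Pax5 in Pax5-KO cells. The causes were not tested.

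The fit with the replicate block called 821 genes with Ebf1 in Pax5-KO cells and 916 with Pax5 in Ebf1-KO cells, against 524 and 594 without it. Of the calls on named genes and lists that the report gives, it changed no others than those printed there and Irf8, which joined the 10 PAX5-activated genes higher with Pax5 in Ebf1-KO cells.

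Leaving out each library in turn gave 1296 to 1604 calls for Ebf1-KO against WT (main count 2134), 204 to 258 with Ebf1 in Ebf1-KO, 125 to 2228 with Ebf1 in Pax5-KO, 193 to 1944 between the groups given Ebf1, 48 to 685 for the difference of the Ebf1 effects, 1012 to 1614 for Pax5-KO against WT (1986), 159 to 357 with Pax5 in Ebf1-KO, 222 to 395 with Pax5 in Pax5-KO and 763 to 1402 between the groups given Pax5 (2157). The counts of 2228, 1944 and 685 came without Pax5-KO+Ebf1 replicate 2. A lone library was assumed to vary like the other groups. Peaks with a score above the list median numbered 12 of the 21. Within 100 kb 2 of 3 tested neighbours were called in a Pax5 comparison, against 4 of 14 within 250 kb and at least 13.6% of all tested genes. Of the 4 nearest genes, 1 or 2 were shared per member with correlation distance and 2 to 4 with group means.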

Other observations

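Genes that PAX5 is known to repress also differed between the groups given Pax5. Of the 12, 8 were higher in Ebf1-KO+Pax5 than in Pax5-KO+Pax5 by edgeR and 0 were lower, where 7.18% of all tested genes were called higher. The 8 were Flt3, Csf1r, Notch1, Cd28, Grap2, Emb, Ccl3 and Sdc1, and Notch1 lost its call without Pax5-KO+Pax5 replicate 2 (adjusted p = 0.0608 by edgeR). The median log2 fold change of the list was 1.35, against 0.00 over all genes tested. Of the 16 PAX5-activated genes, 4 were higher in Ebf1-KO+Pax5 and 5 lower, with a median of -0.81.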
